A study of Homo sapiens with 6 samples.

Results

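The protein-coding genes of chromosome 19 named ZNF and a number were examined for DNA methylation in M07e, a human acute megakaryoblastic leukemia line kept in medium with GM-CSF. Control cells (genotype WT, 3 libraries) were set against cells whose DNMT3B gene had been knocked out by CRISPR (3 libraries). Both carry the background of the same line, and the labels say neither whether the knockout is 1 clone nor whether replicates were separate cultures. The members are all 240 such RefSeq genes and the rows of the authors' region table that overlap their spans or lie within 2 kb of them. Of the 240 genes, 144 had at least 1 region, giving 260 of the 35130 regions of the table, of which 23 served 2 neighbouring genes. The authors' deposited table holds 1 mean per group and region, so no value below has an error between libraries, and every level and q given here is from that table. What the points of the authors' tests were is not stated, so their q cannot be read as a measure of the spread between libraries. The column M07e_WT was taken as the control and M07e_3883, a name found in no label, as the knockout, since knockout is the only other genotype. Every direction rests on that reading, and methylation means do not check the knockout itself.

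Most genes of this family encode proteins with rows of C2H2 zinc fingers that bind DNA, and many also carry a KRAB domain. KRAB recruits the co-repressor TRIM28, which brings the histone methyltransferase SETDB1 and heterochromatin proteins to the bound site, often a transposable element. The genes stand in tandem clusters that arose by repeated duplication. DNMT3B places new methylation on unmethylated DNA, and methylated CpG-rich starts of zinc finger genes are a known feature of tumours. Reads from near-identical copies may be assigned to either copy, and the part of this in the values was not tested.

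Several measured regions reach the bases just before a member's start, and these bases are shown 5′ to 3′ on the gene's strand, with CpG dinucleotides, where the measured cytosines lie, in capitals. The first 3 lie in regions called higher in knockout cells, and the other 3 are counterparts in regions that were not called. Uncalled does not mean unchanged, since the ZNF154 region was listed at 0 in control cells and 44.9% in knockout cells. All are RefSeq sequence of GRCh38.p14.
ZNF433 (chr19:12035680-12035762, minus strand): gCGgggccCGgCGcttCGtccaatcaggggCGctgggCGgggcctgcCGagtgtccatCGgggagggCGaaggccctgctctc
ZNF625 (chr19:12156739-12156839, minus strand): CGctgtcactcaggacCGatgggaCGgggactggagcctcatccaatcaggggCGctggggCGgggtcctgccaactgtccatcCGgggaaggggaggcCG
ZNF347 (chr19:53159054-53159188, minus strand): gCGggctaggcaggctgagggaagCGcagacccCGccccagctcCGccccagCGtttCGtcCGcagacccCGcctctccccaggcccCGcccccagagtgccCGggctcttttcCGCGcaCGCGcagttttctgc
ZNF20 (chr19:12140369-12140472, minus strand): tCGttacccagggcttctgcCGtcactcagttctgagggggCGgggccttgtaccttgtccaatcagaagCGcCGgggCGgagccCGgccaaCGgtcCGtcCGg
ZNF675 (chr19:23687213-23687351, minus strand): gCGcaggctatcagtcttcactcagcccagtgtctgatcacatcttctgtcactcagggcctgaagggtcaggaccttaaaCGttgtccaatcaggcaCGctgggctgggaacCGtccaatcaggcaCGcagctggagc
ZNF154 (chr19:57709205-57709339, minus strand): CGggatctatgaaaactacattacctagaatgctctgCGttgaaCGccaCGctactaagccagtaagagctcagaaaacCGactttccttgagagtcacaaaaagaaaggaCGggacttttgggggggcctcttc

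The stretches differ in CpG content, with 14 CpGs in the 135 bases of ZNF347, 9 in 83 bases of ZNF433 and 7 in 101 bases of ZNF625, and with 10 in 104 bases of ZNF20, 5 in 139 bases of ZNF675 and 6 in 135 bases of ZNF154. The called and uncalled stretches are not split by CpG content, since ZNF20 held more CpGs than ZNF625 over a like length. The letters CCAATCAG, an extended CCAAT box searched on both strands, occur once each in the ZNF433, ZNF625 and ZNF20 stretches and in 2 places in that of ZNF675, but not in those of ZNF347 and ZNF154. Over the 300 bases around each listed start, 27 of 28 promoters of 19p12 members held CCAATCAG (96.4%). The share was 27 of 50 in 19p13 (54.0%) and 4 of 179 in 19q13 (2.23%), against 3.97% of all 35116 promoters in RefSeq's table and 11.6% of those of ZNF genes on other chromosomes. MspI cuts at CCGG, and these letters were present in 90.0% of the members' 261 promoters and in 63.1% of all promoters. They were also in 87.2% of promoters of ZNF genes on other chromosomes and in 74.0% of those of protein-coding genes. Matches describe the letters and not a bound factor.

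Of the 260 member regions, 22 were called (8.46%), with 17 higher and 5 lower in knockout cells. A region was counted as called at q under 0.01 with a difference of at least 25 percentage points. Over all 35130 regions 6.74% were called, 4.57% higher and 2.17% lower. Beside these stood 28 of 350 regions (8%) of the ZNF genes on other chromosomes and 137 of 2238 regions (6.12%) of other protein-coding genes on chromosome 19. The members' share lies close to the background and no difference between the sets was tested. Counted over genes, 21 of the 144 measured members had a called region, 15 a higher one and 7 a lower one, and ZNF610 had both. The share of other genes with a called region was not computed, so counts of genes, here and by band, have no background. The 6.74% is a share of regions and does not serve as one. The median member region was at 7.92% in control cells and 30.4% in knockout cells, and the median difference was 12.9 points higher, beside 17.4 points over the whole table.

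**Figure D1:**
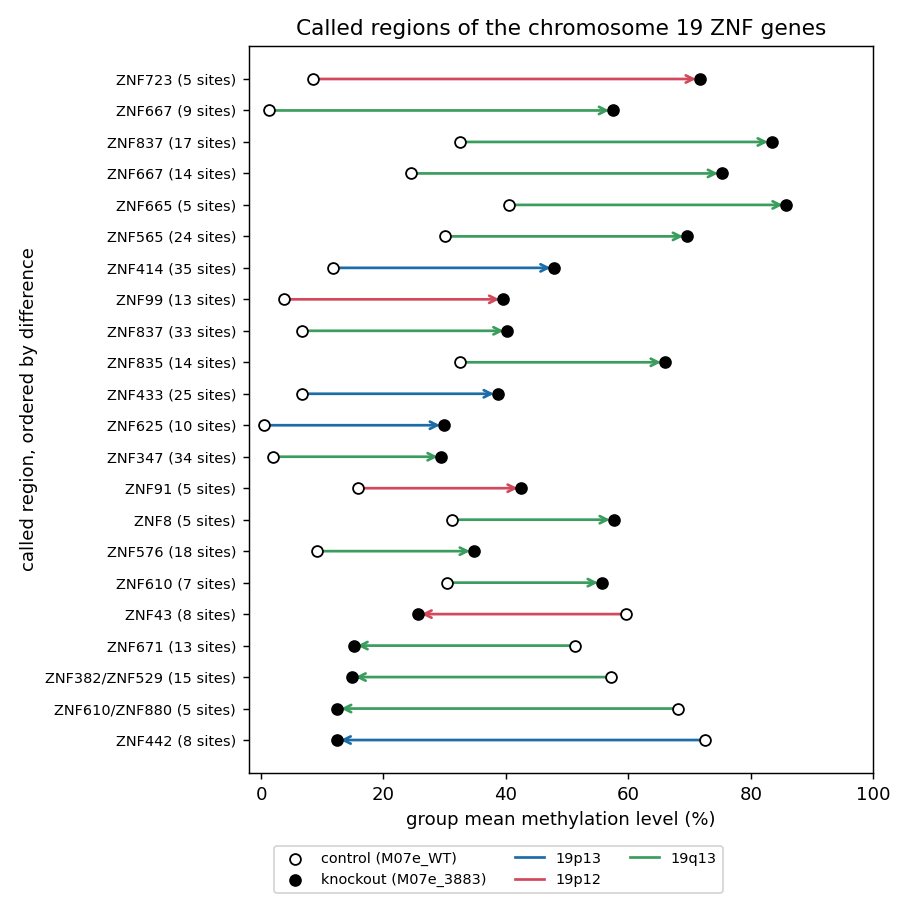
Group mean methylation level (%) of the 22 called regions, 1 row per region, with open circles for the control, filled circles for the knockout and arrows coloured by cytoband. The 17 gains run from 25.2 to 63.2 points, and the 5 losses from -60.1 to -34.03 points. The table gives no error for a group mean.

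The 17 regions that rose started at a median of 11.8% in control cells (0.516% to 40.4%) and reached a median of 55.6% in knockout cells (29.5% to 85.8%). The 5 that fell started between 51.4% and 72.5% and ended between 12.4% and 25.6%. The control levels of these 2 groups did not overlap. Because a called difference has a minimum size, low levels can be called mostly upward and high levels mostly downward.

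In 19p13, 4 of 51 regions were called (7.84%, beside 6.74% of the table), at 4 of 37 measured genes, all of them in 19p13.2. The largest loss among all members was at ZNF442, where 8 sites went from 72.5% in control cells to 12.4% in knockout cells (chr19:12365432-12365444, inside the gene and centred 245 bases downstream of a listed start, the authors' q = 5.46e-07). ZNF414 held the member region with the most sites, 35 inside the gene, and rose from 11.8% to 47.9% (chr19:8510935-8511302, q = 0.000206). At ZNF433 25 sites across the start rose from 6.67% to 38.6% (chr19:12035360-12035761, q = 0.00938), in a region that also overlaps the antisense RNA gene ZNF433-AS1. The next ZNF433 region, 7 sites centred 124 bases before the start, was not called. It was at 37.5% in control cells and 42.1% in knockout cells (chr19:12035772-12035834). At ZNF625, whose sequence is printed above in full, 10 sites just before the start rose from 0.516% to 29.8% (chr19:12156740-12156838, q = 0.00772). The upstream region of its neighbour ZNF20 was at 1.67% in control cells and 9.45% in knockout cells (q = 0.477). ZNF44 had the most regions of the band, 5, and none was called. Its 17 sites at the start were at 24.1% and 5.96% (q = 0.00137), a difference of -18.2 points, short of the 25 required.

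In 19p12, the cluster next to the centromere that runs from ZNF93 to ZNF254, 4 of 22 regions were called (18.2%), at 4 of 15 measured genes. The background was 6.74%, and the difference from it was not tested. The largest gain of all called member regions was at ZNF723, where 5 sites rose from 8.41% in control cells to 71.6% in knockout cells (chr19:22832454-22832496, inside the gene and centred 184 bases after a listed start, q = 5.59e-05). The next region of ZNF723, 6 sites a few bases farther on, was at 32.4% in control cells and listed at 0 in knockout cells (chr19:22832513-22832544, q = 1), opposite in sign. ZNF91, which silences SVA retrotransposons, rose from 15.9% to 42.5% over 5 sites inside its start (chr19:23395217-23395262, q = 0.000132). ZNF99 rose from 3.75% to 39.5% over 13 sites at an end of the gene (chr19:22783712-22784114, q = 0.00522). ZNF43 fell from 59.6% to 25.6% over 8 sites centred 201 bases after a listed start (chr19:21835950-21836012, q = 0.00327). ZNF43 had 4 regions, the most in the band, and the other 3 lay within 1000 bases of its outermost start. The outermost, with 5 sites, was at 17.8% and 58.6% without being called (q = 0.0771). The start region of ZNF675, whose upstream bases are shown above, was at 2.93% and 0.773% (q = 1).

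In 19q13, 14 of 169 regions were called (8.28%, beside 6.74% of the table), 11 higher and 3 lower, at 13 of 91 measured genes. ZNF565 rose from 30.0% in control cells to 69.5% in knockout cells over 24 sites inside its start (chr19:36245735-36245916, q = 0.00036). ZNF382, a repressor reported as silenced in tumours, and its neighbour ZNF529 have spans that overlap, and a region of 15 sites in both fell from 57.2% to 14.8% (chr19:36605501-36605555, q = 0.00277). A region of 18 sites 1116 bases outside ZNF576 rose from 9.20% to 34.7% (chr19:43595214-43595276, q = 0.00448) and lies within IRGQ, another protein-coding gene. These bands, 19q13.1 and 19q13.3, held 3 of the 14 calls, and the other 11 lay in 19q13.4, which has 129 of the 169 regions.

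Within 19q13.4, ZNF667 and ZNF837 each had 2 called gains. At ZNF667 14 sites rose from 24.5% to 75.3% (chr19:56477296-56477340, centred 27 bases after a listed start, q = 0.000956). A second ZNF667 region of 9 sites, outside that gene and within its antisense RNA gene ZNF667-AS1, rose from 1.23% to 57.5% (chr19:56478258-56478328, q = 0.00196). At ZNF837 33 sites at the end of the gene rose from 6.65% to 40.2% (chr19:58367594-58367762, q = 0.000589), and 17 sites inside it from 32.5% to 83.4% (chr19:58368656-58368731, q = 0.00013).

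ZNF610 changed in both directions. A region of 5 sites that it shares with its neighbour ZNF880 fell from 68.1% in control cells to 12.5% in knockout cells (chr19:52367309-52367327, q = 8.3e-06). Another of 7 sites inside ZNF610 rose from 30.5% to 55.6% (chr19:52336192-52336207, q = 0.00924). The loss lies where the spans of both genes overlap, and the gain lies within ZNF610 alone.

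ZNF671, reported as methylated in several cancers, fell from 51.4% to 15.1% over 13 sites inside its start (chr19:57727395-57727432), with the lowest q of the members at 4.41e-07. ZNF665 had the highest knockout level of the called regions, 85.8% from 40.4% over 5 sites, 1480 bases outside the gene (chr19:53194838-53194877, q = 0.0015). ZNF347, whose upstream bases are shown above, rose from 1.96% to 29.5% over 34 sites across its start (chr19:53158978-53159187, q = 0.00328). ZNF835 rose from 32.5% to 65.9% over 14 sites inside the gene (chr19:56663826-56664036, q = 0.0099). ZNF8 rose from 31.2% to 57.6% over 5 sites shared with the readthrough ZNF8-ERVK3-1 (chr19:58279547-58279567, q = 0.00646).

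ZNF536, a neural zinc finger gene and the only member in 19q12, had 18 regions and none was called, beside 6.74% of the table. Its levels ran from 0 to 71.3% in control cells and from 2.10% to 80% in knockout cells. Of the 18 regions, 6 were listed at 0 in control cells, and 1 of these held 9 sites at 66.7% in knockout cells with q = 1 (chr19:30444228-30444313). The authors' Mann-Whitney p for that region was 2.53e-05. No member region at 0 in control cells was called, so the 6 regions at 0 add nothing to a comparison with the table's share.

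**Figure D2:**
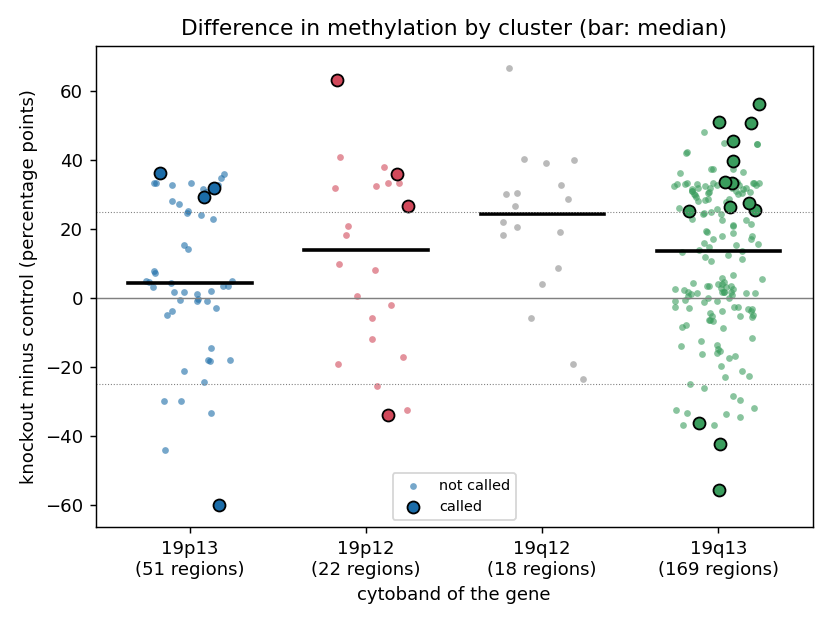
Difference between knockout and control (percentage points) of every member region by cytoband of its gene, with called regions outlined in black, bars at the medians and dotted lines at 25 points either way. The medians are 4.29 in 19p13, 13.98 in 19p12, 24.4 in 19q12 and 13.6 in 19q13, they are lower without regions at 0 in 1 group and 25% to 33.33% in the other, and each band holds regions on both sides of 0.

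The clusters differed little in site number, with medians of 7 sites in 19p13 and 19q13 and 6.5 in 19p12. The median control level was 6.90% in 19p13, 14.6% in 19p12 and 6.98% in 19q13, and the median knockout level 27.4%, 28.8% and 30.8%. The quartiles of the difference overlap, from -3.40 to 27.7 points in 19p13, from -10.4 to 33.1 in 19p12 and from -3.09 to 30.8 in 19q13. Without the regions listed at 0 in 1 group and between 25% and 33.33% in the other, described further on, the median difference was 2.65 points in 19p13 (42 regions), 8 in 19p12 (17 regions), 19.9 in 19q12 (14 regions) and 3.10 in 19q13 (135 regions). In 2 member regions the deposited difference is not the difference of the deposited means (tolerance 0.01 points). These are a ZNF43 region of 1 site, with means of 19.9% and 16.7% and a difference of -5.85, and a ZNF761 region of 2 sites, listed at 0 in both groups with a difference of 13.6, which is the 19q13 median itself. Neither was called, and without them the medians were 18.1 in 19p12 and 13.5 in 19q13. No test between clusters was run, and 19p12 rests on 22 regions.

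Methylation at the starts was low. Of the 137 member regions within 1000 bases of a listed RefSeq start, 65 were under 20% in both groups, against 7 of 101 regions farther away. The median level near starts was 6.67% in control cells and 10.3% in knockout cells, a median difference of 1.83 points. Farther away it was 9.71% and 32.8%, a median difference of 30.0 points. Without the regions at 0 in 1 group and 25% to 33.33% in the other, the median difference was 1.503 points near starts (125 regions) and 18.3 farther away (63 regions). Called regions numbered 13 of 137 near starts (9.49%) and 6 of 101 farther away (5.94%), both near the background of 6.74%, and the remaining 3 belonged to genes with no listed start. The difference between near and far was not tested. Of the 5 losses, those at ZNF442, ZNF43, ZNF382/ZNF529 and ZNF671 were centred between 201 and 245 bases downstream of a start. The fifth, at ZNF610/ZNF880, had its midpoint at -2605 bases from the listed start of ZNF880. That midpoint was 460 bases inside the outermost start of ZNF880, and ZNF610 has no listed start. The gains at ZNF91 and ZNF723 were centred 231.5 and 184 bases downstream of a listed start. Uncalled regions lay at like distances, as at ZNF439 (238.5 bases) and ZNF256 (240.5 bases), so this position is not particular to the losses. How many of the 137 regions lie in that range was not counted.

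**Figure D3:**
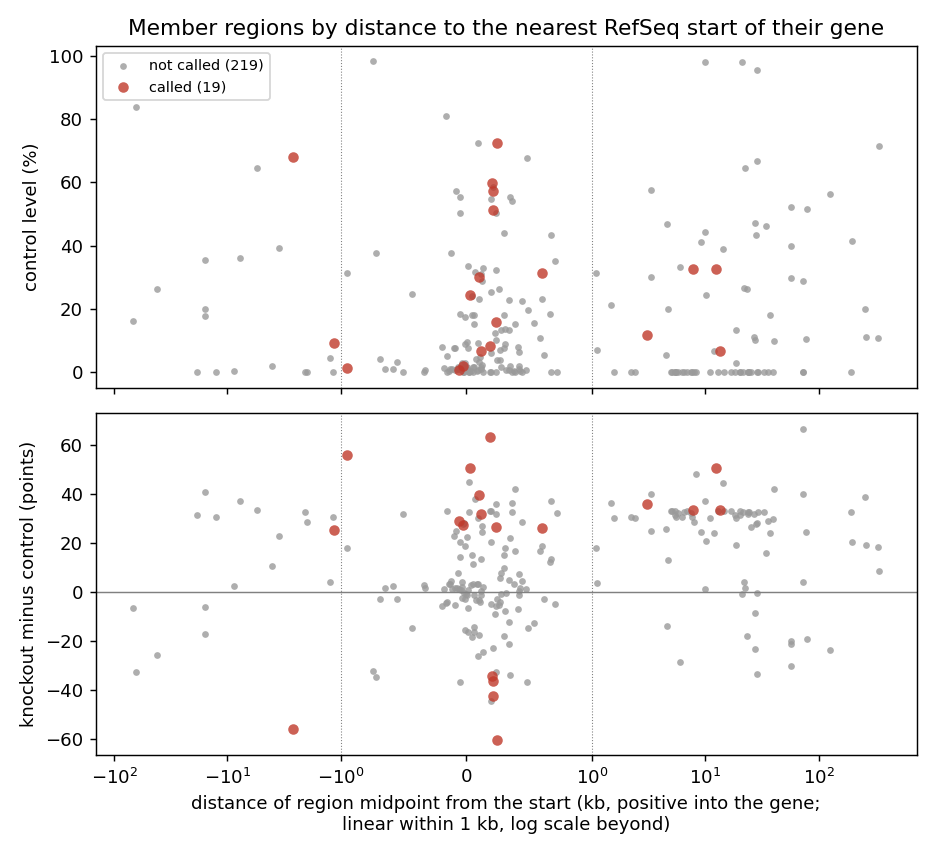
Control level (%, top) and difference (percentage points, bottom) of the 238 regions whose genes have a listed RefSeq start, by distance of the region's midpoint from the nearest start in kb, linear within 1 kb and logarithmic beyond. Near starts the differences gather around 0, with 13 called regions among 137, and beyond 1 kb into the gene many points lie just above 30.

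The points just above 30 are a feature of the table that bears on every median here. A control mean of exactly 0 with a knockout mean between 25% and 33.33% was found at 49 member regions (18.8%), of which 11 lay near a listed start and 38 farther away. The reverse, 0 in knockout cells and 25% to 33.33% in control cells, was found at 3. None of these was called. Without them the median difference of the members was 3.44 points over 208 regions, beside 4.15 points over the whole table without such regions. Of 95 member regions that differed by at least 25 points without being called, 79 were higher and 60 had q = 1. No member region with a mean of 0 in either group was called, at differences up to 66.7 points. Whether the authors' q could reach the threshold at such regions is not stated. The lack of a call there is therefore not read as a lack of difference. How the group means treat sites not covered in a library is not stated, and its part in these values was not tested.

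**Figure D4:**
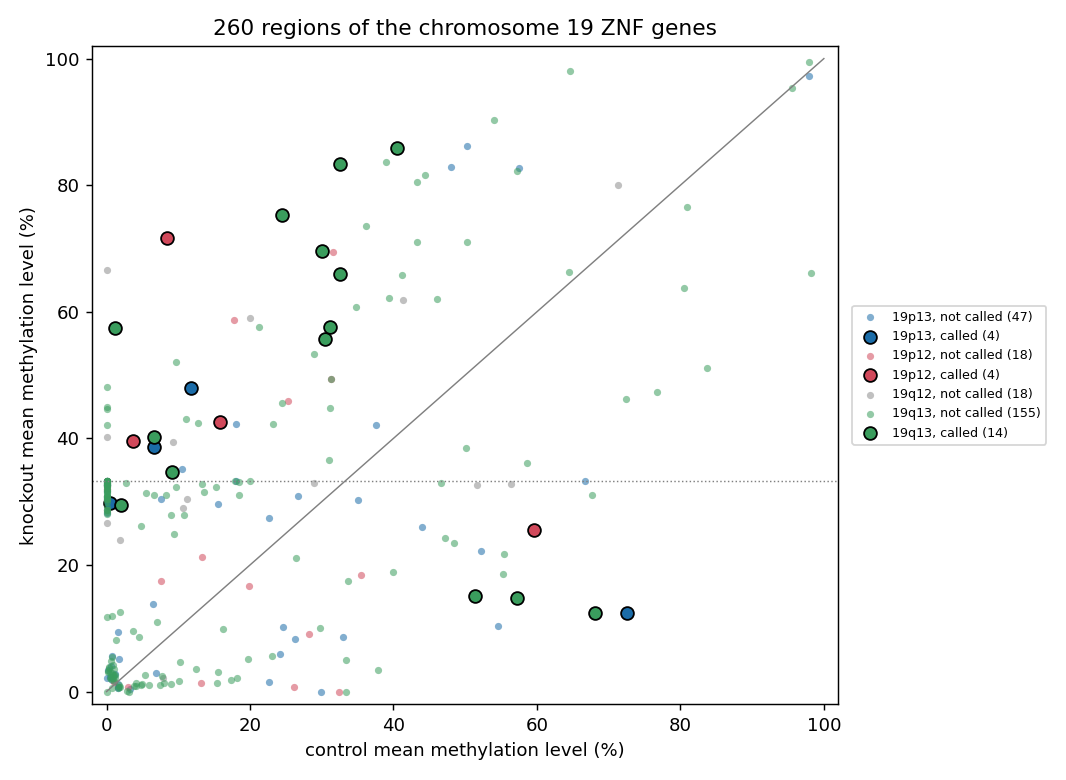
Knockout against control mean methylation level (%) of the 260 member regions, coloured by cytoband, with called regions outlined and a dotted line at 33.33%. Of the 57 points at 0 in control cells, 49 crowd between 25% and the dotted line and none is called, while the called regions of ZNF625 and ZNF347 lie close beside them at 0.516% and 1.96% in control cells. No point at 0 in either group is called, whatever its difference, so the lack of a call there is not read as a lack of difference.

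Among 9 members reported as methylated in tumours, 7 had regions and 3 had called ones, ZNF667 upward and ZNF382 and ZNF671 downward. That is 4 of 13 regions, 2 in each direction, beside the background of 6.74%. Both gains are at ZNF667, the difference from the background was not tested, and with 13 regions the share says little against it. ZNF154, often methylated in tumours, was listed at 0 in control cells and 44.9% in knockout cells over 19 sites at its start (q = 1), and ZNF177 at 0 and 33.33% (q = 1). The authors' Mann-Whitney p was 2.64e-05 for the ZNF154 region and 0.0645 for that of ZNF177. ZNF582, a methylation marker in cervical neoplasia, was at 15.4% and 1.34% over 5 sites (q = 0.000132), a difference under 25 points. ZNF331, an imprinted gene with 6 regions, the most in 19q13, had none called. Its 26 sites at chr19:53554497-53554778 were listed at 0 in control cells and 32.6% in knockout cells. ZNF132 and ZNF677 had no region.

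Among 8 members known to bind retrotransposons, 5 had regions and only ZNF91 had a called one, 1 of 6 regions, beside the background of 6.74%. With 6 regions the share says little against it. ZNF93, which silences LINE-1 elements, was listed at 0 in control cells and 31.9% in knockout cells over 5 sites at its start (q = 1), and ZNF534 at 0 and 32.8% (q = 1). ZNF611 was at 44.4% and 81.7% inside the gene (q = 0.392) and at 4.08% and 0.833% at its start (q = 0.0743). ZNF587 was at 0.65% and 4.83% at its start, with q = 0.00151 but a difference of 4.18 points. ZNF417, ZNF649 and ZNF765 had no region. ZNF274, which directs SETDB1 to the 3′ exons of other zinc finger genes, had 1 region, listed at 0 in control cells and 32.6% in knockout cells (q = 1).

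No region was called among 18 at 9 of the 14 listed co-repressor and heterochromatin genes through which KRAB proteins act, beside the background of 6.74%. With 18 regions the share says little against it. Of the 18, 6 were listed at 0 in control cells, where no member region was called either. TRIM28 itself was at 0.522% in control cells and 2.56% in knockout cells (q = 0.475). SETDB1 was at 33.33% and 80.2% over 6 sites inside the gene (q = 0.0727) without being called. UHRF1, which guides maintenance methylation, had 5 regions, at 14.6% and 50.3% over 8 sites (q = 0.0245), at 3.23% and 0.508% over 5 sites (q = 0.206), and in the other 3 at 0 in control cells and between 30.2% and 32.7% in knockout cells (q = 1). The start of DNMT1, the maintenance methyltransferase, was at 1.45% and 0.836% (q = 0.604), and 3 other DNMT1 regions were listed at 0 in control cells and between 31.7% and 33.33% in knockout cells. CBX3, PPHLN1, TASOR and DAXX were under 5% in both groups. MORC2 was at 33.33% and 30.2% and, at its start, at 45.9% and 35.4% (q = 1 for each). ATF7IP, ATRX, CBX1, CBX5 and MPHOSPH8 had no region.

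Several regions lay close to the thresholds. With q under 0.01 but differences under 25 points, there were 7 regions, 6 lower and 1 higher. Of these ZNF606 went from 23.1% in control cells to 5.65% in knockout cells (q = 3.24e-05), and ZNF761 from 15.6% to 3.16% (q = 0.00528). The region of ZNF461 and ZNF567 was at 12.4% and 3.61% (q = 0.00149). With differences of at least 25 points, the lowest q values that were not called were 0.0109 at ZNF415 (54.1% and 90.3%), 0.0128 at ZNF468 (55.4% and 21.7%) and 0.0132 at ZNF223 (76.8% and 47.3%). ZNF83 was at 57.2% and 82.2% (q = 0.0167) and ZNF506 at 48.0% and 82.8% (q = 0.0208). The region of ZNF787 with 30 sites was listed at 0 and 32.7% (q = 1). At the margin of 2 kb, the region of ZNF536 farthest out lay 1939 bases from the gene (0 and 28.6%), and the nearest region left out lay 2157 bases from ZNF175 (1.85% and 20.9%).

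Other call rules gave other counts, and each is set beside the background under the same rule. At 10 points and q under 0.01, 26 member regions were called, 17 higher and 9 lower, beside 8.6% of all regions (5.33% higher, 3.27% lower). At 40 points there were 8, 5 higher and 3 lower, beside 3.42% (2.33% and 1.09%). At 25 points and q under 0.05 there were 34, 24 higher and 10 lower, beside 10.5% (7.05% and 3.41%), and at q under 0.001 there were 10, 7 higher and 3 lower, beside 3.31% (2.26% and 1.04%). With the authors' Kolmogorov-Smirnov p adjusted over the whole table there were 11, 8 higher and 3 lower, beside 4.12% (2.79% and 1.32%). These 11 were the regions of ZNF414, ZNF442, ZNF723, ZNF91, ZNF565, ZNF610/ZNF880, ZNF665 and ZNF671, the one of ZNF667 near its listed start, and both of ZNF837. With the Mann-Whitney p there were 27, 21 higher and 6 lower, beside 8.7% (6.38% and 2.31%).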

How the data were processed

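DNA of 6 M07e libraries, 3 control and 3 DNMT3B knockout, was cut with MspI, converted with bisulfite and sequenced, per the labels' protocols. Bismark, HISAT2, methylKit, Trimmomatic and FastQC, and the build hg38, appear in the submitters' processing notes with neither version nor role. The region caller is one not given in the sources used here. For every region the authors deposited each group's mean methylation level as a percent, the difference in percentage points, a count of CpG sites, 2 p-values (Mann-Whitney and 2-dimensional Kolmogorov-Smirnov) and a q-value, per the file headers. In 274 of the 35130 regions, 2 of them member regions, the deposited difference was not that of the deposited means, and it was used as deposited. Values of single libraries were not analysed here. The read depth is therefore unknown, and no test between libraries could be run.

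Genes and starts came from RefSeq (GRCh38.p14, the hg38 build). Of the 240 genes, 210 had a promoter entry, which also gave the strand. Within RefSeq promoter sequence, 2 bases after the deposited start and 1 base after the deposited stop fell on a CpG in 100% of 3190 and of 3143 regions, so the starts and ends printed here include those shifts. Of 2568 regions lying wholly in such sequence, 75.3% listed more sites than CpG dinucleotides and 0 listed more than the CpG cytosines of both strands, so a site is a cytosine of a single strand. Calls needed a deposited q below 0.01 together with a difference of 25 points or more. Bands followed the UCSC cytobands, by gene midpoint.

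Members, lists and thresholds were chosen with earlier results of these data known. The genes named are every gene with a called region, the members of the lists, ZNF274, ZNF536, the gene with the most regions in each band, regions nearest to the thresholds and those with the most sites; the counterpart promoters, ZNF723's second region and the motif CCAATCAG were chosen after the values were seen. Alternatives covered the margin around genes, both thresholds, the adjustment, the number of sites, means of 0, merging, symbols, bands and the width of the start class. Assignment, calling and adjustment were tested on simulated data. Python 3.11.15, numpy 2.4.6, pandas 2.3.3 and matplotlib 3.10.9 were used. A planned comparison of zinc finger number and KRAB domains was not run, since protein sequences were not used here.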

Additional observations from a re-analysis of the deposited data

How the results depend on the processing

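Of the alternatives, those on the margin, on merging and on symbols with letters left the number of called regions between 18 and 23 (22 as reported). Those on means of 0 and on 5 sites gave 22, a count fixed in advance, since no region they left out had been called. Mann-Whitney p-values adjusted by Benjamini-Hochberg gave 27. The number moved by over 1.5 times under these: 34 regions at 33 genes at q under 0.05 (10 lower; 10.5% of the table), 10 regions at 10 genes at q under 0.001 (7 higher, 3 lower; 3.31%), 8 regions at 9 genes at 40 points (5 higher, 3 lower; 3.42%), 11 regions at 11 genes with the Kolmogorov-Smirnov p adjusted over the table (8 higher, 3 lower; 4.12%), and 13 regions at 13 genes with at least 10 sites (11 higher, 2 lower, of 64 regions). For regions with at least 10 sites the share over the whole table was not computed, so that count has no background beside it. At 10 points 9 regions were lower. The median difference was 15.4 points with no margin, 18.0 with 10 kb, 27.8 with at least 10 sites, 12.1 with the added symbols, 3.44 without 0 against 25% to 33.33% and 3.27 without any mean of 0. With 2000 bases for starts and ends, called regions numbered 4 at ends, 2 at ends without strand, 4 inside and 0 outside, in place of 1, 1, 7 and 2, and 13 lay near any listed start, an alternative chosen after seeing the data, against 11 near the outer start. Leaving out the 2 regions whose deposited difference was not that of the means, also chosen after seeing the data, kept a median of 12.9. Neither had been called, so the 22 calls could not change. No alternative turned a sign. Leaving out a library could not be done. No paired analysis was possible because the table holds 1 mean per group. Depth is unknown, so what it limits cannot be given.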

Other observations

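Some of the widest differences among the members had an authors' q of 1 and were not called. Besides ZNF154 and ZNF536, the start of ZNF135 was listed at 0 in control cells and 42.1% in knockout cells over 17 sites, a region beside ZNF888 at 0 and 44.6% over 8 sites, and a region just past the end of ZNF628 at 0 and 48.2% over 13 sites. Adjusted over the whole table, the authors' Mann-Whitney p was 0.00073 at ZNF154, 0.000711 at ZNF536 and 0.00103 at ZNF135. It was 0.00325 at ZNF628 and 0.0198 beside ZNF888. In all, 57 member regions were listed at exactly 0 in control cells and 5 in knockout cells, 1 of them, at ZNF761, in both, and none of these was called. The lack of a call at a mean of 0 is not read as a lack of difference. The regions named here were chosen after their values were seen.

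High methylation was rare in both groups. In the control 170 of the 260 regions were under 20% and 7 at 80% or more, and in knockout cells 98 and 15. Only 3 regions, at ZNF317, ZNF841 and ZNF865, were above 80% in both. Such regions were also rare over the whole table, 255 of 35130.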
